A study of Homo sapiens with 36 samples.

Results

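The genes described are 7 of the RAS, RAF, MEK and ERK families: the RAS genes NRAS and HRAS, the RAF kinases ARAF and BRAF, the MEK kinases MAP2K1 and MAP2K2, and the ERK kinase MAPK3. They were chosen by name, as rows of the count matrix, out of 20802 genes measured, and all 7 passed the filter on low counts together with 12102 genes in all. RNA came from LoVo, an established human colorectal cancer cell line grown in medium with 10% serum, after 24 hours with a MEK inhibitor at 10 doses (0.03, 0.1, 0.3, 1, 3, 10, 30, 100, 300 and 1000 nM) or with the solvent DMSO. The design text of the series identifies the inhibitor only as a numbered compound from a medicinal chemistry paper. There were 3 libraries at every dose. The 6 DMSO libraries were split over a pair of sequencing chips, 3 on each. No genetic modification is named for any group, and all groups share 1 cell line. The question was whether the transcripts of the cascade itself change when the cascade is blocked.

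The cascade relays growth factor signals to the nucleus. RAS proteins are membrane-bound GTPases that, when loaded with GTP, recruit and activate RAF kinases, RAF phosphorylates MEK, and MEK phosphorylates ERK, which then acts on transcription factors and on many cytosolic proteins. In gut epithelium the cascade drives proliferation, and colorectal tumours often carry mutations that keep it active. The protein products are controlled mostly by GTP loading and phosphorylation, and a transcript level does not report the activity of the kinase it encodes.

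Total counts per library lay between 2972186 and 4751839. Values are CPM, counts scaled to a common library size with TMM factors, which equate the bulk of genes between libraries. Counts depend on how well the amplicon of a gene amplifies, so levels of different genes are not compared. Each dose was tested by edgeR's quasi-likelihood test against the DMSO libraries of each chip in turn, and the larger p was adjusted (Benjamini-Hochberg over all tested genes). A gene is called when that adjusted p is below 0.05 and the direction is the same against both chips. Log2 fold changes are against the mean of both DMSO chip groups, and the standard error (SE) is the larger of the pair. DMSO values are means over 3 pairs of same-numbered libraries, since those deviated together across the chips. In the libraries labelled replicate 1 at 1 nM and at 1000 nM, 2.43% and 2.17% of well-measured genes lay more than 2-fold from the other libraries of their dose. Replicate 3 of 1000 nM followed with 1.43%, and any other library had at most 0.589%. The summed level of 10 markers of colorectal epithelium was 3770 to 3968 CPM in DMSO and 4236 to 4670 CPM at 1000 nM. Among them KRT19 ran at 618 to 704 CPM in DMSO and averaged 1500 CPM at 1000 nM, CDX2 at 128 to 151 and then 283 CPM, and KRT18 at 626 to 694 and then 478 CPM. CDX1 was near 0 in DMSO, at most 1.57 CPM. The summed level of 7 fibroblast markers was 3.3 to 5.01 CPM in DMSO, 16.4 to 23.5 CPM at 10 nM and 42.0 to 42.7 CPM at 1000 nM, mostly from COL1A1, COL3A1 and LUM, while COL1A2 had 0 counts in all libraries and THY1 had 1. The part of these markers in the results was not tested. In bulk RNA, fewer cells of a type and less RNA per cell cannot be told apart.

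DUSP6, a phosphatase gene that ERK switches on and that serves as the check of the block, stood at 64.2 ± 3.27 CPM in DMSO (SD, n = 3 pairs), at 36.1 ± 1.27 CPM at 1 nM (n = 3) and at 1.89 ± 0.468 CPM at 1000 nM. DUSP6 was the only one of the 8 genes followed here, the 7 cascade genes included, that was called at 1 nM, with a log2 fold change of -0.83 (SE 0.122, edgeR's quasi-likelihood test, adjusted p = 5.25e-06).

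At 1000 nM, 3 of the 7 cascade genes were called, where 41.8% of all tested genes were. MAPK3 and NRAS rose and MAP2K1 fell, while HRAS, ARAF, BRAF and MAP2K2 were not called. The median log2 fold change of the 7 genes was 0.11, beside 0.01 over all tested genes. MAPK3, the largest mover of the 7, still ranked behind 18.7% of tested genes by absolute change. At 3, 10, 30, 100 and 300 nM MAPK3 alone was called, as higher, at doses where 6.66%, 13.5%, 18%, 18.4% and 22.1% of genes rose. At 1 nM, where 7.97% of genes were called, and at 0.03, 0.1 and 0.3 nM, where 0% were, none of the 7 was. At those 3 lowest doses 42, 299 and 330 genes had an unadjusted p below 0.05 in edgeR's quasi-likelihood test, none of them among the 7. DESeq2 and limma-voom also called 0 genes at each of those 3 doses, and 0 of the 7 at 1 nM.

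**Figure D1:**
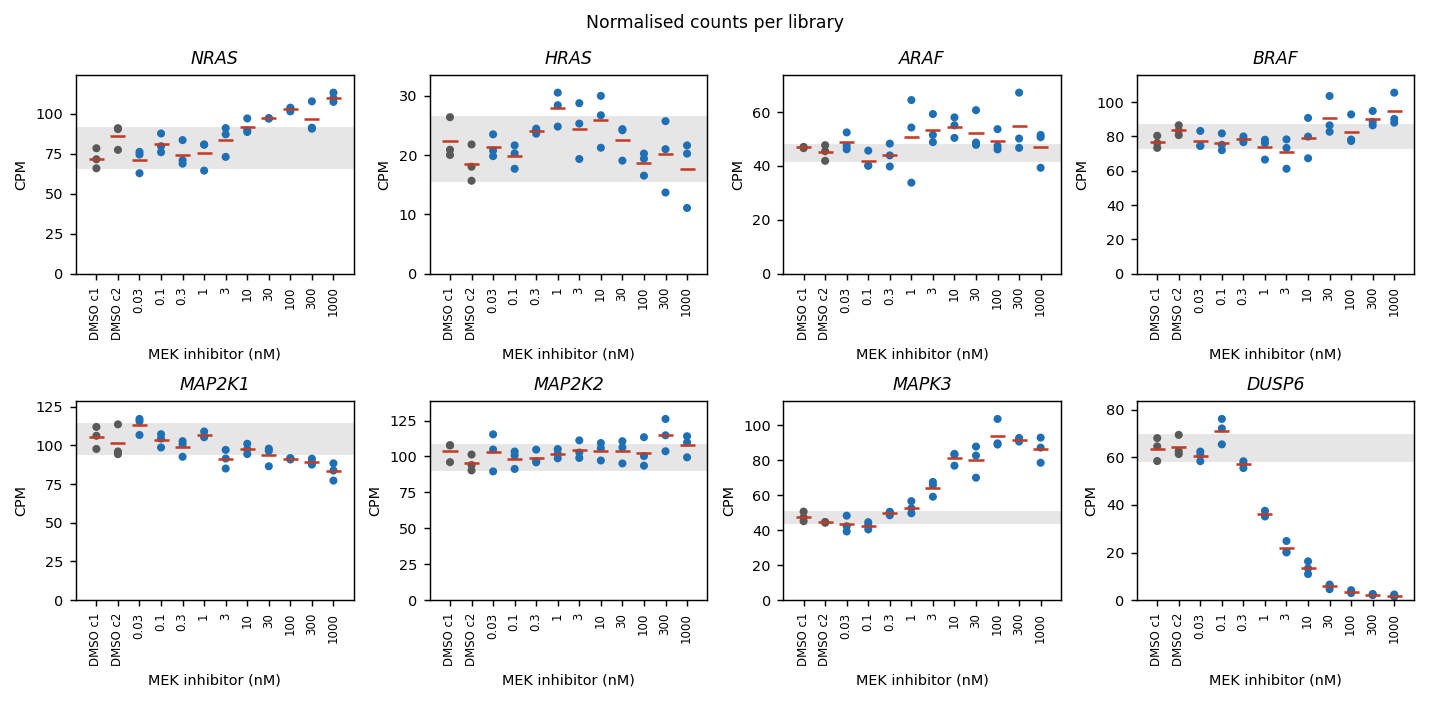
Normalised counts (CPM, linear axis from 0) of the 7 cascade genes and of DUSP6 in every library, by dose, with DMSO split by chip (c1, c2). Points are libraries, red bars are group means of 3, and the grey band spans the 6 DMSO libraries. MAPK3 leaves the band at 3 nM and stays above it, NRAS lies above it at 1000 nM, and MAP2K1 lies below it from 100 nM.

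The genomic sequence just before the transcription start is shown for the 3 genes that were called at 1000 nM. Each is the 250 bases upstream of the start in RefSeq (GRCh38.p14), read 5′ to 3′ on the strand of the gene, and all 7 genes had an entry. The table holds 2 starts for MAP2K1 and for MAP2K2, of which the first listed was used. Capitals mark matches, on either strand, to GGGCGG (the GC box bound by SP1), CCGGAAG (a core of sites for ETS factors, which ERK acts on), CACGTG (the E-box) and TGANTCA (AP-1). These motifs do not overlap each other here, and they were chosen after the sequences had been seen.
MAPK3, chr16:30123221-30123470, minus strand: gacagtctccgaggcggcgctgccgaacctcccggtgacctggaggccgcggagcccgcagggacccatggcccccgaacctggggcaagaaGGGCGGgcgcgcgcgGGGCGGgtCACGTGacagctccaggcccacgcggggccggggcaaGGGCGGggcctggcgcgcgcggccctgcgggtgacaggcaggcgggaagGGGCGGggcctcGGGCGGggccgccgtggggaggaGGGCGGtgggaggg
NRAS, chr1:114716772-114717021, minus strand: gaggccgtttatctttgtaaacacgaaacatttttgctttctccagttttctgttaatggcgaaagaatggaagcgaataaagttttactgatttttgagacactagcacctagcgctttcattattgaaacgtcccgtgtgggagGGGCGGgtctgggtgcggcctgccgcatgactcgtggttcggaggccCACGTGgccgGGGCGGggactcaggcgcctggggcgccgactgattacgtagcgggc
MAP2K1, chr15:66386662-66386911, plus strand: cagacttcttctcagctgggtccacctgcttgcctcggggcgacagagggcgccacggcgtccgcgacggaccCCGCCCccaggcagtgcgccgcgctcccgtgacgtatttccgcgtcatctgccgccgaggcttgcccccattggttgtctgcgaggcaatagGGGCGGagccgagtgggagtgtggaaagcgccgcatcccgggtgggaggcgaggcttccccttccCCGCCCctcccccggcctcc
MAPK3 had 6 GC boxes and 1 E-box in this window, NRAS had 2 GC boxes and 1 E-box, and MAP2K1 had 3 GC boxes. Among the genes not called at 1000 nM, HRAS had 3 GC boxes, MAP2K2 had 2, and ARAF and BRAF had 0. BRAF was called for the trend over all treated doses, given below, and HRAS for that from 3 nM upwards. G and C made up 80.4% of the MAPK3 window, 54.4% of that of NRAS and 71.2% of that of MAP2K1, beside a median of 58.0% over all windows. Of 35116 promoter windows of that length in the table, 42.6% held a GC box, 6.34% an E-box, 8.52% the ETS core and 6.57% the AP-1 motif. The ETS core matched in HRAS alone of the 7 genes, and the AP-1 motif in none. A match is a string in the sequence, and binding was not measured.

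MAPK3, which encodes ERK1, the kinase that MEK phosphorylates, rose 1.87-fold at 1000 nM. Its 3 chip 1 DMSO libraries stood at 50.6, 45.1 and 47.3 CPM, and its 3 chip 2 libraries at 44.5, 44.2 and 44.6 CPM. At 1000 nM the 3 libraries stood at 78.5, 87.2 and 92.9 CPM, all above every DMSO library. The log2 fold change was 0.91 (SE 0.108, edgeR's quasi-likelihood test, adjusted p = 2.61e-09). At 1 nM the libraries stood at 49.6, 52.5 and 56.6 CPM, overlapping DMSO, and MAPK3 was at 0.20 (SE 0.112), which did not pass. At 3 nM they stood at 59.1, 65.8 and 67.6 CPM, clear of both DMSO and 1 nM, with a log2 fold change of 0.48 (SE 0.109, edgeR's quasi-likelihood test, adjusted p = 0.00297). At 10 nM they stood at 83.6, 83.1 and 76.8 CPM, above all of 3 nM, at a log2 fold change of 0.82 (SE 0.109). The step from 1 to 10 nM was thus outside the spread between libraries at each dose. At 30 nM MAPK3 ran from 70.0 to 87.8 CPM, overlapping 10 nM, and at 100 nM from 88.9 to 103.6 CPM, just above 30 nM. The 3 highest doses overlapped each other, with 90.6 to 92.7 CPM at 300 nM and the highest mean, 94.0 ± 8.26 CPM (n = 3), at 100 nM. The 3 lowest doses ran from 39.2 to 50.5 CPM and did not rise above DMSO in any library.

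A curve of log2 CPM on dose, with base level, top and EC50 (the dose that gives the middle of the log2 change), put the EC50 of MAPK3 at 2.70 nM (95% interval 1.77 to 4.11) with a total change of 1.02. For DUSP6 the same fit gave 9.60 nM (7.62 to 12.1) with a total change of -4.66. The intervals treat the 36 libraries as independent, and the difference between the genes was not tested. The curve had a fixed steepness, and how well it fits each gene was not tested. DUSP6 was called at 1 nM, where MAPK3 was not, so the EC50s do not order these genes by the dose at which each begins to change. Fits for the other 6 cascade genes left the EC50 too loose to give, with a standard error of log10 EC50 of 0.266 or more.

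NRAS, a RAS GTPase gene, rose at 1000 nM. Its DMSO libraries stood at 65.9, 78.4 and 71.5 CPM on chip 1 and at 77.4, 90.4 and 90.9 CPM on chip 2. At 1000 nM they stood at 113.1, 109.7 and 107.4 CPM, above all 6. The log2 fold change was 0.48 (SE 0.108, edgeR's quasi-likelihood test, adjusted p = 0.00654). Taken by chip it was 0.61 over chip 1 and 0.35 over chip 2. All 3 libraries were also above every DMSO library at 30 nM (97.0 to 97.2 CPM) and at 100 nM (101.4 to 103.8 CPM), without a call, at log2 fold changes of 0.30 (SE 0.109) and 0.38 (SE 0.108). At 300 nM 1 library stood at 107.7 CPM and the other two at 90.6 and 91.3 CPM, beside the top of DMSO at 90.9. The call at 1000 nM was lost without replicate 1 of DMSO chip 2 (edgeR's quasi-likelihood test, adjusted p = 0.072). The DMSO chips themselves differed for NRAS by 0.26 (SE 0.11, chip 2 higher, edgeR's quasi-likelihood test, adjusted p = 1.00, unadjusted p = 0.0222), more than for any other of the 7 genes but HRAS, at -0.27 (SE 0.203).

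HRAS, the other RAS gene, had the fewest counts of the 7 and the largest standard errors on the log2 scale. In DMSO it stood between 15.7 and 26.4 CPM with a median of 20.5. At 1000 nM its libraries stood at 20.3, 21.6 and 11.1 CPM, of which 2 lay within the DMSO range and 1 below it. The log2 fold change was -0.22 (SE 0.211), and the interval of the fold change, 0.643 to 1.14, holds both a fall and a rise. Without replicate 3 of 1000 nM the value was 0.04. The highest HRAS levels were at middle doses, 24.8, 28.4 and 30.5 CPM at 1 nM and 30.0, 26.7 and 21.3 CPM at 10 nM, which in part overlap DMSO. At 1 nM the log2 fold change was 0.46 (SE 0.198) without a call. HRAS was called there against DMSO chip 2 alone and against the mean of the 6 DMSO libraries, but not against chip 1 alone or with same-numbered DMSO libraries summed.

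The RAF kinases link RAS to MEK. BRAF stood at 105.5, 88.1 and 90.2 CPM at 1000 nM, and its 6 DMSO libraries ran from 73.4 to 86.5 CPM with a median of 80.6. All 3 treated libraries were higher, by a log2 fold change of 0.24 (SE 0.111) that did not pass (edgeR's quasi-likelihood test, adjusted p = 0.209). The highest of them, replicate 1, is one of the libraries that stand apart, and without it the value was 0.15. The interval of the fold change, 1.02 to 1.37 without correction for the number of genes, is around the change from the mean of both DMSO groups. The test takes the larger p of the 2 chips, which was 0.115 before adjustment (edgeR's quasi-likelihood test). Against chip 2 the log2 fold change was 0.18. At 3 nM 2 of 3 BRAF libraries lay below all of DMSO, at 61.2 and 73.3 CPM, and 1 within it, with a log2 fold change of -0.17 (SE 0.112).
ARAF ran from 41.9 to 47.7 CPM in DMSO and stood at 50.7, 51.5 and 39.3 CPM at 1000 nM, to both sides of that range. Its log2 fold change was 0.03 (SE 0.152), with an interval of 0.831 to 1.26 for the fold change. All 3 libraries were above DMSO at 3, 10 and 30 nM, where the means were 53.2, 54.5 and 52.4 CPM, but the log2 fold changes of 0.21, 0.25 and 0.19 did not pass. At 1 nM, replicate 1, which stands apart over many genes, had 33.8 CPM against 54.2 and 64.4 CPM in the other two.

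MAP2K1 and MAP2K2 encode MEK1 and MEK2, the kinases that the inhibitor is directed at. MAP2K1 stood at 97.7, 111.9 and 106.2 CPM in the DMSO libraries of chip 1 and at 94.3, 113.6 and 96.1 CPM in those of chip 2. At 1000 nM it stood at 88.4, 77.2 and 83.7 CPM, below all 6. The log2 fold change was -0.31 (SE 0.0949, edgeR's quasi-likelihood test, adjusted p = 0.0124), a level of 0.805 times DMSO. At 100 nM (90.9 to 91.8 CPM) and 300 nM (87.6 to 91.4 CPM) all 3 libraries were also below DMSO, with log2 fold changes of -0.18 (SE 0.094) and -0.21 (SE 0.0941) that did not pass. The call at 1000 nM was lost without replicate 2 of DMSO chip 2 (edgeR's quasi-likelihood test, adjusted p = 0.122), without replicate 2 of 1000 nM (0.0619) and when only the DMSO and 1000 nM libraries were fitted (0.0512).
MAP2K2 was not called at any dose by this rule. Its DMSO libraries ran from 90.3 to 107.8 CPM, and at 1000 nM it stood at 109.8, 114.1 and 99.4 CPM, of which 2 were above that range. The log2 fold change was 0.11 (SE 0.103), and the fold change had an interval of 0.941 to 1.24. Its highest mean was 114.8 ± 11.3 CPM at 300 nM, a log2 fold change of 0.21 (SE 0.103) that did not pass. At that dose MAP2K2 was called against DMSO chip 2 alone and against the mean of the DMSO groups. It was not called against chip 1 alone or with same-numbered DMSO libraries summed.

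**Figure D2:**
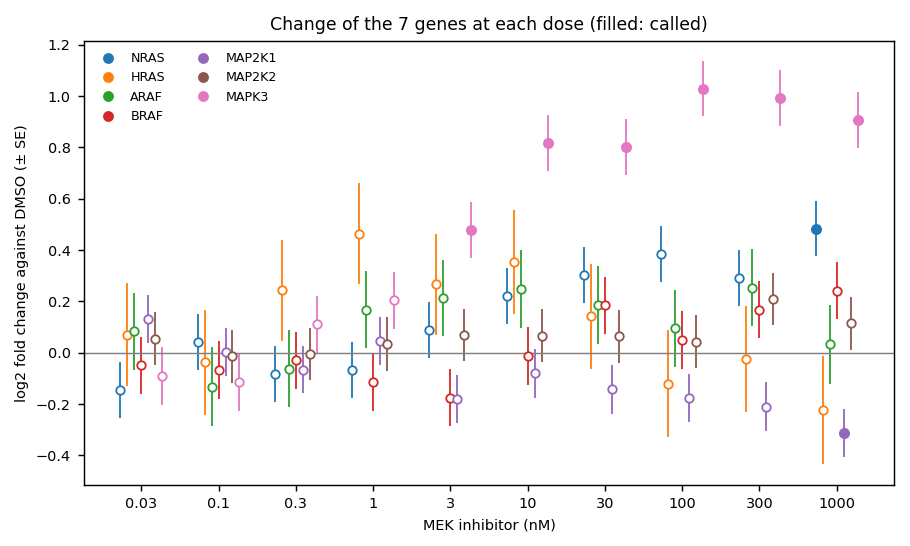
Log2 fold change of the 7 cascade genes against the mean of both DMSO groups at each dose; bars are standard errors and filled points were called. MAPK3 is filled from 3 nM upwards and reaches 1.03 at 100 nM, and NRAS (0.48) and MAP2K1 (-0.31) are filled at 1000 nM only.

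The trend over the doses was also tested within the 30 treated libraries, with no DMSO library in the fit. By edgeR's quasi-likelihood test of log2 level on log10 dose, 4 of the 7 genes were called, 3 higher and 1 lower, beside 66.3% of all 12081 genes tested (33.2% higher, 33.1% lower). MAPK3 rose by 0.28 per 10-fold dose (SE 0.0217, adjusted p = 4.19e-15), NRAS by 0.13 (SE 0.0181, adjusted p = 3.03e-08) and BRAF by 0.07 (SE 0.0194, adjusted p = 0.00264), and MAP2K1 fell by 0.08 on the log2 scale (slope SE 0.015, adjusted p = 8.12e-06). HRAS (-0.06, SE 0.036), ARAF (0.04, SE 0.0263) and MAP2K2 (0.03, SE 0.0164) were not called. Over the 6 doses from 3 to 1000 nM the HRAS slope was -0.22 with a call (edgeR's quasi-likelihood test, adjusted p = 0.0168). That of MAP2K1 was -0.06 without one (adjusted p = 0.115, the same test). Over those doses the slope of MAPK3 was 0.16 and that of BRAF 0.14, both still called, and NRAS stayed at 0.13. The labels give no chip for the treated libraries, so dose and chip cannot be told apart in these slopes.

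Pairs of related genes were compared by the ratio of their counts within each library, which no scaling between libraries affects. The 9 libraries of the 3 highest doses were set against the 9 of the 3 lowest, by a two-sided exact permutation test adjusted over the 3 pairs compared. As with the slopes, the labels give no chip for these libraries, so dose and chip cannot be told apart in this comparison for any pair. The log2 ratio of MAP2K1 to MAP2K2 was 0.07 ± 0.17 (SD, n = 9) at the lowest doses and -0.30 ± 0.158 (n = 9) at the highest, a difference of -0.36 (exact permutation test, adjusted p = 0.000494). In 7 of the 9 high-dose libraries it was below all 9 low-dose ones. In DMSO that ratio was 0.02 ± 0.184 on chip 1 and 0.09 ± 0.0696 on chip 2. Against the 3 pair means of DMSO the difference was -0.35 (n = 9 and 3, exact permutation test, adjusted p = 0.0136), with the smallest unadjusted p that this design can give, 0.00455.
The log2 ratio of NRAS to HRAS was 1.78 ± 0.234 at the lowest doses and 2.47 ± 0.384 at the highest, a difference of 0.69 (n = 9 and 9, exact permutation test, adjusted p = 0.000494), and 8 of 9 high-dose libraries lay above all low-dose ones. This ratio also differed between the DMSO chips, 1.68 ± 0.234 on chip 1 against 2.21 ± 0.356 on chip 2 (n = 3 each), and the difference from DMSO was 0.53. That difference did not pass against the 3 pair means of DMSO (n = 9 and 3, exact permutation test, adjusted p = 0.075, added after seeing the data), and it passed only when the 6 DMSO libraries, which deviate in pairs, were counted as independent (exact permutation test, adjusted p = 0.0402). The part of the chip in it was not tested.
The log2 ratio of BRAF to ARAF was 0.79 ± 0.146 at the lowest and 0.83 ± 0.262 at the highest doses (n = 9 and 9, exact permutation test, adjusted p = 0.676). Its lowest group means lay between, 0.58, 0.41 and 0.53 at 1, 3 and 10 nM.

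**Figure D3:**
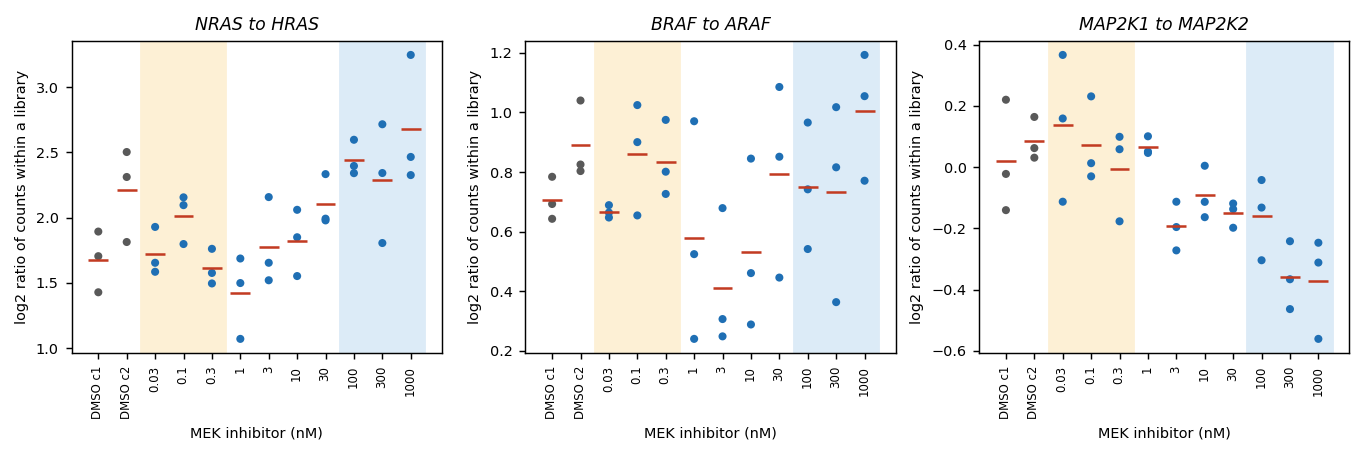
Log2 ratio of the counts of 2 related genes within each library, by dose; points are libraries, red bars group means, and the shaded areas are the 3 lowest and the 3 highest doses that were compared. MAP2K1 to MAP2K2 goes from 0.07 to -0.30 between the shaded areas, while BRAF to ARAF is at 0.79 and 0.83.

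Across the 12 group means of log2 CPM, NRAS and MAPK3 ran in parallel (Pearson r = 0.859) and MAP2K1 ran opposite to both (r = -0.869 with NRAS and -0.822 with MAPK3). This describes groups that share a dose order, and no test was made. Among 10407 genes with at least 5 CPM on average, the patterns most like MAPK3 were those of CD63, a membrane protein of late endosomes and lysosomes (r = 0.992 over 12 group means), YPEL3 (0.989) and PPAP2B, a lipid phosphatase (0.989). At 1000 nM the log2 fold changes of these were 1.25 (SE 0.108), 1.82 (SE 0.124) and 1.53 (SE 0.185). Closest to NRAS were FAM63B (r = 0.974), the polarity gene MPP7 (0.967) and the interferon-induced IFI44 (0.96), and closest to MAP2K1 were the retinol dehydrogenase gene RDH11 (0.953), MSL2 (0.948) and TXNL4A (0.935).

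Genes that act around the cascade moved in both directions at 1000 nM, where 21.2% of all tested genes rose and 20.7% fell. Upstream of RAS, 1 of 11 tested activators and adaptors rose and 2 fell, with a median log2 fold change of -0.00. RASGRF2, an exchange factor that loads RAS with GTP, changed by -2.11 (SE 0.203), the phosphatase PTPN11 by -0.42 (SE 0.105), and the adaptor GAB1 rose by 0.57 (SE 0.151). GTPase activating proteins, which switch RAS off, rose in 4 of 9 and fell in 0, with a median of 0.52 beside 0.01 over all genes. RASA4 rose by 2.08 (SE 0.367) from 2.53 to 10.9 CPM, RASAL2 by 0.88 (SE 0.188), RASA1 by 0.61 (SE 0.106) and DAB2IP by 0.52 (SE 0.112), and NF1 stood at -0.27 (SE 0.137) without a call. Of 9 genes that process RAS proteins or bring them to the membrane, 1 rose and 1 fell. FNTB, the catalytic subunit of farnesyltransferase, fell by 1.0 on the log2 scale (SE 0.243), to 7.01 CPM, and GOLGA7, a partner of the RAS palmitoyltransferase, rose by 0.59 (SE 0.16).

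Of 11 RAS-related GTPases 6 rose and 2 fell, with a median of 0.34. RALB rose by 0.61 (SE 0.122), RAP2A by 0.59 (SE 0.126), RIT1 by 0.88 (SE 0.18) and RAP2B by 0.43 (SE 0.118). Among 16 scaffolds and regulators 5 rose and 3 fell, with a median of 0.18. LAMTOR2, part of a late endosomal complex that holds MEK, rose by 0.78 (SE 0.127) and the scaffold IQGAP1 by 0.48 (SE 0.0804). The chaperone HSP90AB1 and its kinase co-chaperone CDC37, which help to fold RAF kinases, changed by -0.58 (SE 0.107) and -0.54 (SE 0.105). HSP90AA1, on the same list, stood at 0.04 (SE 0.109) without a call. Of 7 genes for 14-3-3 proteins, which bind phosphorylated RAF, 3 rose and 0 fell, namely SFN by 0.89 (SE 0.154), YWHAH by 0.55 (SE 0.122) and YWHAE by 0.28 (SE 0.0869). Of 6 kinase genes of the RSK, MSK and MNK families, which act below ERK, 2 rose and 1 fell: RPS6KA1 rose by 0.69 (SE 0.121), MKNK2 by 0.41 (SE 0.111), and RPS6KA5 changed by -1.09 (SE 0.156). In the parallel MAP kinase branches 2 of 14 rose and 1 fell, MAPK11 by 0.95 (SE 0.218), MAPK13 by 0.34 (SE 0.101) and MAP2K5 by -0.48 (SE 0.175). As a contrast in size, 9 of 10 genes known to follow ERK activity fell at 1000 nM, with a median of -2.33.

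**Figure D4:**
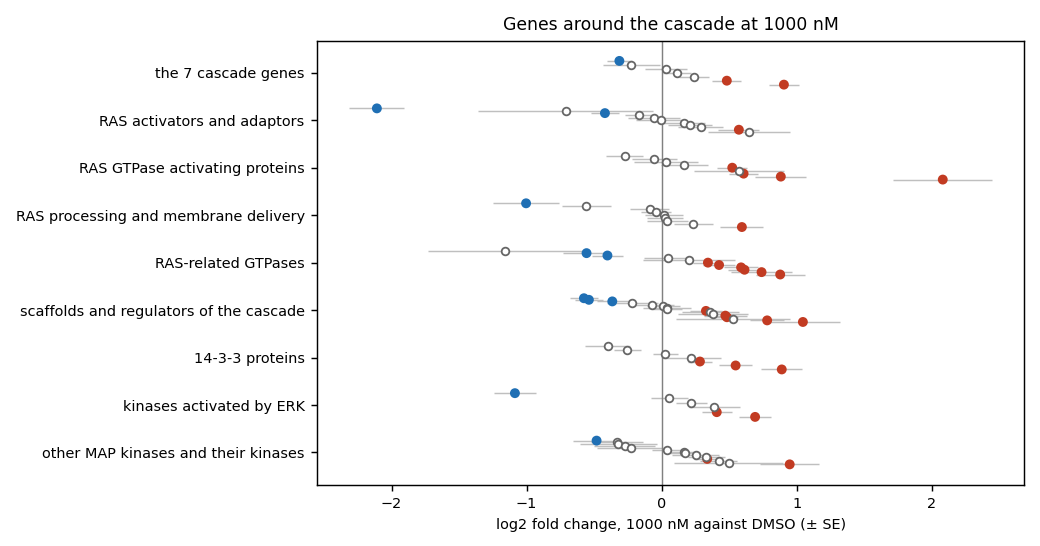
Log2 fold change at 1000 nM against DMSO for the 7 cascade genes and for 8 lists of genes around the cascade; bars are standard errors, red and blue points were called higher and lower, open points were not called. RASA4 (2.08) lies highest among the called GTPase activating proteins, which all lie above 0, and RASGRF2 (-2.11) lies lowest among the activators.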

How the data were processed

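RNA of 36 LoVo libraries (12 groups of 3) was measured by Ion AmpliSeq amplicon sequencing, from 10 ng of total RNA each with 18 libraries in a pool, per the labels' protocols. The authors deposited raw counts, whole numbers with no normalization. The submitters' processing notes name genome build hg19. The sources used here do not give the aligner, the counting tool or the use of strand. The 36 single files hold the same values as the matrix, and 10 spike-in rows with 0 counts were left out. Overlaps of exons were looked up in the GENCODE 29 annotation (GRCh38). Exons of ARAF overlap those of SYN1 on the opposite strand, those of BRAF overlap NDUFB2, and those of MAP2K1 overlap SNAPC5 and AC116913.1. ARAF, BRAF and MAP2K1 are uncertain in that respect.

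Counts were fitted with edgeR 4.0.16 in R 4.3.3: filterByExpr (12102 genes kept), TMM scaling and a robust quasi-likelihood model of 12 groups with 24 residual degrees of freedom. Calls follow the rule in the text, since only DMSO libraries have a labelled chip. The slope model used log10 dose in the 30 treated libraries. Ratios used a pseudocount of 1, and log2 CPM a prior count of 1. Alternatives used DESeq2 1.42.0 and voom of limma 3.58.1; Python 3.11.15, numpy 2.4.6 and scipy 1.17.1 served the permutation tests and curves. Procedures were tested on simulated counts. The labels speak of biological replicates without saying how cultures were separated, so a p-value reflects only how far these samples spread, which may in part be technical. Same-numbered DMSO libraries of the chips correlated in their deviations from the group mean (r = 0.201 to 0.348), but in 0 of 20 pairs of a DMSO group and a dose did all 3 exceed 0.1, so numbers do not pair doses with DMSO. Genes named are the 7 members, the 3 genes most like each called member, and up to 4 called genes per list by adjusted p, besides DUSP6. NF1 and HSP90AA1 were chosen after their values were seen. The members and lists were chosen with earlier results of these data known.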

Additional observations from a re-analysis of the deposited data

How the results depend on the processing

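MAPK3 kept its direction and its call at 3, 10, 30, 100, 300 and 1000 nM under all 14 alternatives and all 9 single-library omissions at each dose; at 1000 nM it ran from 0.84 to 0.96. The number of the 7 genes called changed mostly with the DMSO reference. Against the mean of both DMSO groups, 1 was called at the 1 nM dose, 2 each at 30 and 100 nM, and 4 at 300 nM. Chip 1 alone gave 2 each at 10, 30 and 100 nM and 3 at 300 nM, chip 2 alone gave 1 at 1 nM and 2 at 300 nM, and DMSO summed over chips gave 2 each at 30 and 100 nM and 3 at 300 nM. The 100 nM count was also 2 with upper quartile scaling, total count scaling, only the libraries compared, or without the 2 libraries that stand apart (added after seeing the data). The added gene at 10, 30 and 100 nM was NRAS. At 300 nM NRAS and MAP2K1 were added with the mean, chip 1 and the sums, and MAP2K2 with the mean and chip 2. For BRAF at 1000 nM the adjusted p of edgeR was 0.0285 with the averaged DMSO reference and 0.0195 with chip 1 alone, but 0.0732 with DMSO summed and 0.186 with chip 2 alone. The NRAS to HRAS ratio differed by 0.53 from the 3 DMSO pair means, without a call. Leaving out single libraries gave 2 to 3 called genes at 1000 nM and 4 to 5 for the slope, where MAP2K2 was added without replicate 3 of 0.03 nM or with upper quartile scaling. Values near 0 changed sign without a call: ARAF at 1000 nM with at least 1 CPM in 3 libraries (-0.0050), without the 2 libraries (-0.037) and without replicate 1 (-0.032) or 2 (-0.042) of 1000 nM (single omissions -0.042 to 0.15), its slope from 3 nM upwards (-0.056), HRAS at 1000 nM without replicate 3 (single omissions -0.40 to 0.036), and the BRAF to ARAF ratio without replicate 3 of 1000 nM, where single omissions ran from -0.0029 to 0.10. The number of all genes called rose by over 1.5 times at 1 nM (965 to 2537), 3 nM (1615 to 3137) and 10 nM (3249 to 4964) with the mean of both DMSO groups, and at 0.3 nM from 0 to 125 with only the libraries compared; the slope from 3 nM upwards called 4388 in place of 8006. The replicate block called 3 genes at 1000 nM and 4 for the slope and changed no call of the 7 genes. The causes were not tested. Depth limits HRAS most, with 46 to 135 counts per library.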
